A study of Mus musculus with 6 samples.

Results

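The proteins that choose splice sites were compared between developing and adult mouse cochlear sensory epithelia (CSE). The genes covered are those of the hnRNP, SR, CELF, MBNL, PTB, RBFOX, NOVA, ELAV and ESRP families, taken by their symbols from the array annotation and not by any measured value. They are 52 of the 18193 genes named by a probe set of a single gene, and 163 of the 45101 probe sets on the array. A probe set is a group of short probes against one stretch of transcript, and a gene can have several. Of the 163 probe sets, 151 from 51 genes passed the filter on low signals, and Celf6 was the gene that did not. A further 7 probe sets name a gene of these families together with another gene, so they were left out. Hnrnpa3 and Hnrnpa1l2-ps2 were not analysed here for that reason, and Srsf7 was not analysed here either.

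The study compared CSE from Swiss Webster mice at postnatal day 3 (P3) with those of adults aged 8 weeks, to look for genes behind the difference between these ages in progenitor upkeep and repair capacity. Each of the 6 arrays, 3 per stage, measured RNA pooled from the cochleae of 20 mice in an independent dissection. No mutant allele or treatment was used in either stage. Bone and the tissues flanking the epithelium had been dissected away, and each pool is a dissected tissue of several cell types and not a purified cell type.

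Before splicing, an RNA carries introns that the spliceosome removes, and regulators bound nearby decide which exons stay. SR proteins, which carry stretches rich in arginine and serine, mostly favour inclusion of the exons they bind. The hnRNP proteins coat nascent RNA, and PTB among them mostly favours skipping. Other families vary with cell type and age. NOVA, the neuronal ELAV proteins, RBFOX and several CELF proteins act in neurons, ESRP proteins act in epithelia, and MBNL proteins are known for the switch from fetal to adult isoforms in muscle and brain. CELF proteins oppose MBNL at many exons in heart and muscle. The arrays measured RNA of the regulators themselves and give no reading of exon choice.

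The array signals are intensities that were scaled by the authors to a common trimmed mean on each array. The background level, taken from receptor genes of other sense organs, was highest on P3 replicate 1 at 34.5 and lay between 6.29 and 16.3 on the other arrays. On P3 replicate 1 the signal at the 3′ end of Gapdh was 82.0 times that at the 5′ end, against 0.71 to 2.07 on the others. This array read at least 2-fold below the mean of the other P3 arrays at 29 of the 151 probe sets and at least 2-fold above it at 16. Hair cell markers were weak, with a summed signal of 487 to 649 at P3 and 384 to 612 in the adult, and Slc26a5 and Tmc1, which define mature hair cells, did not pass the filter. Supporting cell markers were all above the filter and summed to 13161 to 20419.6 at P3 and 8448 to 12882 in the adult. The P3 sum rests largely on Tectb, which read 10637, 6326 and 4136 at P3 and 40.1, 253 and 60.6 in the adult. By the test described below, Tectb, Tecta, Sox2 and Jag1 were called higher at P3 and Gjb6 higher in the adult. The other supporting cell markers were not called, so the sum gives no direction for these cells.

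Markers of other cells differed between the stages or between arrays. The summed signal of 21 neuron markers was 6402 to 7552 at P3. In the adult it was 31548 on replicate 1, 9960.3 on replicate 2 and 16065 on replicate 3. This sum rests largely on a few bright markers, Snap25, Nefl, Nefm and Nefh. Not all of the 21 rose. By the test described below, 4 were called higher in the adult (Snap25, Nefh, Scn8a and Thy1) and 2 higher at P3 (Dcx and Gap43). Granulocyte and erythroid markers summed to 154 to 409.9 at P3 and 3897 to 17456 in the adult, and mesenchyme markers to 15647 to 36737 and 5906 to 7648. Markers of cycling cells summed to 2165 to 3148 at P3 and 967 to 2373 in the adult. Epithelial markers summed to 4395 to 6332 at P3 and 2613 to 5460.0 in the adult, and were lowest on adult replicate 1. The sums for oligodendrocytes and Schwann cells were 7985 to 14677 at P3 and 7683 to 26194 in the adult, and those for macrophages and lymphocytes 1043 to 1775 and 1975 to 3555. Muscle markers stayed between 102 and 214 on all arrays. The part of these other cells in the results that follow was not tested, except where a value is given. In pooled tissue, fewer cells of a type and less RNA per cell cannot be told apart.

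Of the 151 probe sets, 4 were called higher in the adult and 6 higher at P3, a call being a limma adjusted p under 0.05 together with a difference of 2-fold or more. These are 2.65% and 3.97% of them, beside 3.39% and 3.87% of all 29036 probe sets tested (7.26% in either direction). The called probe sets belong to 9 genes. Srsf12, Srsf6, Hnrnpa0, Hnrnpa1, Hnrnpab and Celf2 were higher at P3, and Mbnl1, Mbnl2 and 1 probe set of Hnrnpr were higher in the adult. Counted by gene, with each gene represented by its probe set of highest mean signal, called the brightest, 2 of 51 genes were higher in the adult (3.92%, background 4.53%) and 4 at P3 (7.84%, background 5.49%). These shares lie near the background. With arrays scaled to the same median, only Srsf12 and Mbnl2 1433754_at kept their call, while the calls over all probe sets went from 984 and 1125 to 280 and 282. Without the intensity trend in limma, only Srsf12, Mbnl1 and both Mbnl2 probe sets kept theirs. Dropping P3 replicate 2 left 1 probe set called at P3 and 2 in the adult, dropping P3 replicate 3 left 1 at P3, and dropping adult replicate 3 left 1 in each direction. When P3 replicate 1 was dropped, 11 were called at P3. The calls at P3 over all probe sets went the same way, from 1125 to 451, 422 and 342 without the first 3 of these arrays and to 1440.0 without P3 replicate 1. In the adult they went from 984 to 495, 494, 234 and 1399.

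The stages did not overlap, with every array of a stage above every array of the other, at 31 probe sets higher at P3 (20.5%, beside 15.6% of all probe sets) and 14 higher in the adult (9.27%, beside 15.5%). With 3 arrays a stage, the smallest p of an exact two-sided permutation test is 0.1, so none is given. All 2109 probe sets called on the array were without overlap, so the lack of overlap adds nothing to a call. The median log2 fold change, written throughout as adult minus P3, was -0.16 over the 151 probe sets and 0.04 over all probe sets tested. By brightest probe set it was -0.25 over the 51 genes and -0.04 over all 13743 genes.

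The family medians differed in sign, which is given as a description without a test. By brightest probe set the median log2 fold change was -0.50 for 10 SR genes, -0.48 for 19 hnRNP genes, -0.46 for 3 PTB genes and -0.44 for 2 ESRP genes. It was 0.17 for 5 CELF genes, 0.39 for 2 NOVA genes, 0.53 for 4 ELAV genes, 0.82 for 3 RBFOX genes and 1.50 for 3 MBNL genes. Of the 33 SR probe sets, 26 had a negative change. Separated higher at P3 were 12 (36.4%, beside 15.6% of all probe sets), and none was separated higher in the adult (beside 15.5%). Probe sets of the same gene are not independent, and of these 12, Srsf3 gave 5 and Srsf6 gave 3. By brightest probe set, 5 of the 10 SR genes were separated higher at P3 (50%, beside 20.3% of all genes). Among the 56 hnRNP probe sets the change was negative at 41 and positive at 15. Over all 29036 probe sets it was negative at 13844.

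**Figure D1:**
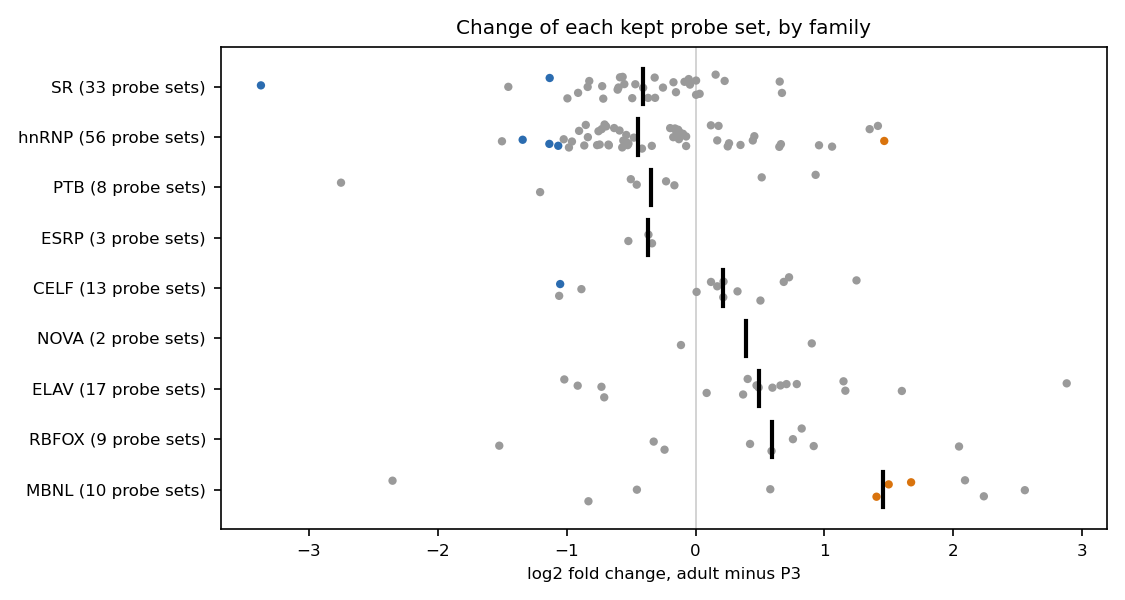
Log2 fold change, adult minus P3, of each of the 151 probe sets that passed the filter (points), by family, with black bars at the family medians. Orange points were called higher in the adult (4), blue points higher at P3 (6) and grey points were not called. The vertical spread within a family has no meaning. SR and hnRNP points lie mostly left of 0, and the called MBNL points lie right of it.

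The MBNL family held the clearest rise. Mbnl1 and Mbnl2 are RNA-binding proteins that favour adult exon patterns and also place RNAs in the cell, and both rose about 3-fold. Mbnl1 (1416904_at) read 426, 572 and 624 at P3 and 1806, 1688 and 1616 in the adult, in the order of replicates 1, 2 and 3, which is kept throughout. The 3 adult arrays lay close together and far above the P3 arrays. The mean signal was 541 ± 103 at P3 and 1704 ± 96.0 in the adult (SD, n = 3 each), a 3.19-fold rise between geometric means, as all folds here are (log2 fold change 1.67, SE 0.23, limma adjusted p = 0.00523). The neuron and the granulocyte and erythroid marker sums were also higher on all 3 adult arrays, and their part in this rise was not tested. Its call was kept without any one array (adjusted p up to 0.0353), and was lost when arrays were scaled to the same median (adjusted p = 0.0876) or when all its probe sets were averaged (adjusted p = 0.147).

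For Mbnl2, the probe set 1433754_at read 1027, 832 and 829 at P3 and 3129.8, 2249 and 2274 in the adult. The second called probe set, 1455827_at, read 659, 532 and 488 at P3 and 1557, 1309 and 1558 in the adult. The stages were well apart at both, and the rises were 2.83-fold (log2 fold change 1.50, SE 0.25, limma adjusted p = 0.0102) and 2.65-fold (log2 fold change 1.40, SE 0.22, limma adjusted p = 0.00880). Without adult replicate 3 neither was called (adjusted p = 0.0533 and 0.0599), and without P3 replicate 2 the first was not (adjusted p = 0.0547).

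Dimmer probe sets of both genes were less certain. Mbnl2 1436858_at read 4.58, 158 and 89.4 at P3 and 199.8, 369 and 178 in the adult, and 1457477_at read 1.60, 26.0 and 34.5 against 60.1, 34.7 and 72.1. Both were higher on every adult array, but the spread at P3 was wide and neither was called (adjusted p = 0.215 and 0.250). The remaining Mbnl2 probe set, 1457237_at, read 43.1, 6.64 and 13.3 at P3 and 23.5, 6.69 and 9.40 in the adult, with overlapping stages and a change of -0.46. The other Mbnl1 probe sets had a log2 fold change of 2.09 (1457924_at, adjusted p = 0.263) and 0.58 (1440315_at, adjusted p = 0.765). Mbnl3, the family member best known from muscle precursors and placenta, read 11.6, 36.6 and 39.9 at P3 and 18.3, 24.8 and 6.62 in the adult, so its stages overlapped and it was not called (log2 fold change -0.83, SE 0.72, limma adjusted p = 0.535). Its dimmer 1442549_at read 38.4, 21.2 and 25.1 at P3 and 10.6, 17.2 and 0.85 in the adult, lower on every adult array with a wide spread (log2 fold change -2.35, adjusted p = 0.239).

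Srsf12 had the largest change of the 51 genes by brightest probe set. It encodes an SR protein described as an inhibitor of splicing. Its single probe set (1437168_at) read 92.0, 65.7 and 79.2 at P3 and 8.21, 9.88 and 5.31 in the adult. The P3 arrays were all above background, while only 1 of the 3 adult arrays was, so it passed the filter through the P3 arrays and its adult level is close to the limit of measurement. The mean signal was 79.0 ± 13.2 at P3 and 7.80 ± 2.31 in the adult (SD, n = 3 each; log2 fold change -3.37, SE 0.46, limma adjusted p = 0.00512). With signals below background raised to it the log2 fold change was -2.81, and with the mean background level added to every signal it was -2.09. The size of the fall is therefore uncertain, while the call was kept in all 15 other settings tried.

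**Figure D2:**
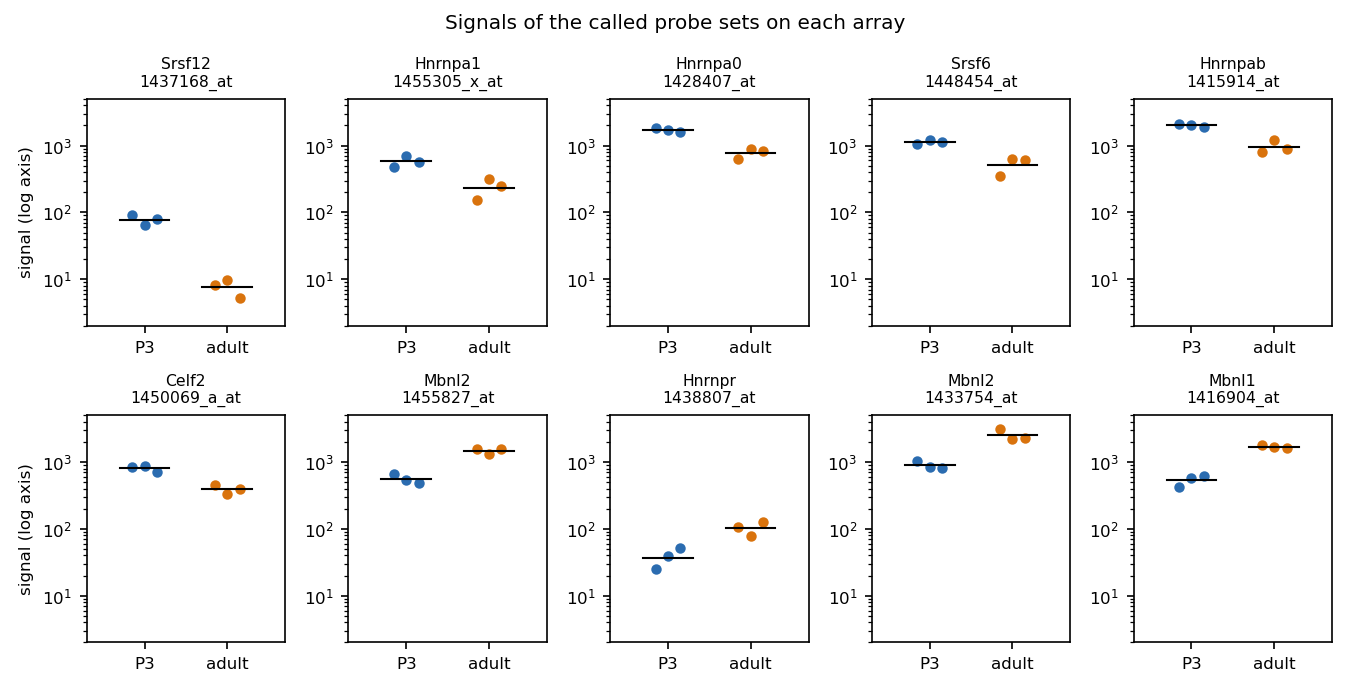
Signal of each of the 10 called probe sets on the 6 arrays, on a log axis, with P3 in blue, adult in orange and black bars at the geometric means. Replicates 1, 2 and 3 run from left to right within a stage. No P3 point overlaps an adult point in any panel, as at all 2109 called probe sets of the array, and Srsf12 falls from 65.7 or more to 9.88 or less.

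Srsf6, an SR protein that activates many exons, fell as well. Its brightest probe set (1448454_at) read 1068, 1231 and 1119 at P3 and 355, 641 and 615 in the adult. The P3 arrays lay close together, and adult replicate 1 was the lowest of all (log2 fold change -1.13, SE 0.27, limma adjusted p = 0.0419). All 4 Srsf6 probe sets had lower means in the adult, with changes from -1.13 to -0.57, and 3 of them were separated. The call was lost when any array other than P3 replicate 1 was left out (adjusted p from 0.0530 to 0.136).

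Srsf3, the smallest SR protein and also an adaptor for RNA export, did not pass the fold limit but was lower in the adult at every one of its 6 probe sets. Its changes ran from -0.91 to -0.15, and 5 of the 6 probe sets were separated higher at P3. At 1416152_a_at the arrays read 487, 612 and 519.5 at P3 and 273, 324 and 263 in the adult (log2 fold change -0.91, SE 0.21, limma adjusted p = 0.0357). The brightest Srsf3 probe set read 1679.7, 1671 and 1419 against 849.6, 1174 and 885 (adjusted p = 0.102). Neither pair of stages overlapped.

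By brightest probe set, the remaining SR genes showed smaller differences. Srsf11 read 695, 785 and 898 at P3 and 413, 559 and 611 in the adult, without overlap (log2 fold change -0.60, SE 0.24, limma adjusted p = 0.168). Srsf1, the founding member of the family, differed by -0.31 on the log2 scale without overlap (adjusted p = 0.464) and Srsf2 by 0.00 (adjusted p = 0.995). The differences for Srsf4, Srsf5, Srsf9 and Srsf10 were -0.25, 0.23, -0.60 and -0.41, with overlapping stages. For Srsf5 the low reading of 369.5 on P3 replicate 1, beside 1777 and 1509 on the other P3 arrays, left a wide SE of 0.59. Changes at dimmer probe sets reached -1.45 for Srsf1, 0.67 for Srsf10 and 0.65 for Srsf11. The stages overlapped at each of these and none was called.

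Among the hnRNP genes, 16 of 19 had a lower mean in the adult by brightest probe set, and 6 of these were separated (31.6%, beside 20.3% of all genes by brightest probe set). Over all 13743 genes, 7189 had a lower mean in the adult. Hnrnpa0, which binds AU-rich elements of messenger RNA, was the one called. It read 1833, 1705 and 1584 at P3 and 634, 896 and 823 in the adult. Every adult array was well below every P3 array, and the mean fell from 1707 ± 125 to 784 ± 135 (SD, n = 3 each), or 2.20-fold (log2 fold change -1.13, SE 0.23, limma adjusted p = 0.0231). The call ended when any array other than P3 replicate 1 and adult replicate 2 was left out (adjusted p from 0.0593 to 0.106).

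Hnrnpa1 and Hnrnpab were called at a probe set that was not their brightest. Hnrnpa1 encodes a core hnRNP protein that represses many exons, and its 1455305_x_at read 484, 708 and 573 at P3 and 153, 312 and 252 in the adult (log2 fold change -1.34, SE 0.30, limma adjusted p = 0.0329). The stages did not overlap there. They overlapped at its brightest probe set, 1436549_a_at, with 616, 571 and 404 at P3 and 457, 286 and 332 in the adult (adjusted p = 0.239). Another, 1455740_at, read 41.1, 32.8 and 48.0 against 52.8, 30.4 and 51.8, a change of 0.12. Probe sets whose names end in _x_at may also bind related transcripts, and Hnrnpa1 has many near-identical copies in the genome, so this reading is uncertain. With its 3 probe sets averaged the difference was -0.60 and not called (adjusted p = 0.0822).

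Hnrnpab is related to Hnrnpd and binds both RNA and DNA. Its 1415914_at read 2112, 2034 and 1898 at P3 and 814, 1219.8 and 896 in the adult (log2 fold change -1.07, SE 0.24, limma adjusted p = 0.0343). The brightest probe set, 1455855_x_at, read 5020.1, 2996 and 2608 against 1975, 2195 and 1592 (adjusted p = 0.156). Both were lower on every adult array. Of 7 Hnrnpab probe sets, 3 were separated higher at P3 and none higher in the adult, and 1426114_at overlapped at 1752, 1191 and 1499 against 2038, 965 and 1109.7 (-0.17). The call of Hnrnpa1 was lost without P3 replicate 2, P3 replicate 3, adult replicate 1 or adult replicate 3 (adjusted p from 0.0600 to 0.115). That of Hnrnpab was lost without the same arrays (0.0910 to 0.170) and with its probe sets averaged (-0.66, adjusted p = 0.123).

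The most negative of the other hnRNP changes included those of Hnrnpd, Hnrnpm and Hnrnpul1. Hnrnpd, also called AUF1, read 1138, 975 and 927 at P3 and 409, 692 and 495 in the adult (log2 fold change -0.96, SE 0.25, limma adjusted p = 0.0558). Hnrnpm read 485, 596 and 529 against 238, 397 and 276 (log2 fold change -0.85, SE 0.25, limma adjusted p = 0.0763). Stages were apart at both genes, and each was called once adult replicate 2 was left out (adjusted p = 0.0394 and 0.0445). Hnrnpul1 overlapped at adult replicate 1 (817, 1103 and 822 against 852, 383 and 464, adjusted p = 0.193), and was called without that array (log2 fold change -1.10, adjusted p = 0.0494). By brightest probe set, the widest positive hnRNP difference was 0.65 for Hnrnpl, which read 95.3 on P3 replicate 1 and 434 and 521 on the other P3 arrays, with 433, 393 and 489 in the adult.

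Probe sets of the same gene had changes of opposite sign at many genes, in the hnRNP family and outside it. Examples are Hnrnpa2b1 (-0.48 to 0.44) and Srsf10 (-0.47 to 0.67). Of 36 genes with 2 or more probe sets that passed, only Hnrnpr and Hnrnpd were separated both ways. The share of all genes separated both ways is not given here. Hnrnpr 1438807_at read 25.3, 39.3 and 51.9 at P3 and 108, 78.7 and 127 in the adult, and was called higher in the adult (log2 fold change 1.46, SE 0.37, limma adjusted p = 0.0492). The probe set 1429232_at was also higher on every adult array, with 31.0, 30.2 and 34.8 against 87.0, 54.6 and 62.0 (adjusted p = 0.102). Hnrnpr 1427129_a_at went the other way, with 926, 1328 and 1275 at P3 and 451, 845 and 533 in the adult (log2 fold change -0.98, SE 0.29, limma adjusted p = 0.0807). No adult array overlapped a P3 array at any of these 3.

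The other Hnrnpr probe sets, 1437526_x_at and 1452030_a_at, had log2 fold changes of -0.53 and -1.50, with overlapping stages. The brightest of the gene, 1437526_x_at, read 1282, 865 and 912 at P3 and 1073, 548 and 574 in the adult, and 1452030_a_at read 50.7, 188 and 198 against 18.7, 110.2 and 40.3. Averaging the gene's probe sets gave a change of -0.10, and the call at 1438807_at was lost without any array but P3 replicate 1 (adjusted p from 0.0633 to 0.222). Its probe sets thus gave no single direction.

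At Hnrnpd, 1457568_at read 108, 173 and 174 at P3 and 267, 211 and 229 in the adult, higher on every adult array and opposite to its brightest probe set (adjusted p = 0.173). The dim 1458273_at was likewise higher on all adult arrays, by 1.35 in log2 (adjusted p = 0.268). Hnrnpu, a nuclear scaffold protein, read 30.8, 27.3 and 25.1 at P3 and 84.3, 49.5 and 96.0 in the adult at 1434390_at (log2 fold change 1.42, SE 0.38, limma adjusted p = 0.0574). This probe set was called in 4 other settings, with signals floored at background, with quantile normalization, and with P3 replicate 1 or adult replicate 2 left out (adjusted p from 0.0411 to 0.0467). At 1434391_at it read 63.0, 52.7 and 45.5 against 165, 66.8 and 100.5 (adjusted p = 0.167). Both were separated higher in the adult, while at the brightest Hnrnpu probe set the stages overlapped (log2 fold change -0.16). Which transcript forms each probe set covers was not analysed here.

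**Figure D3:**
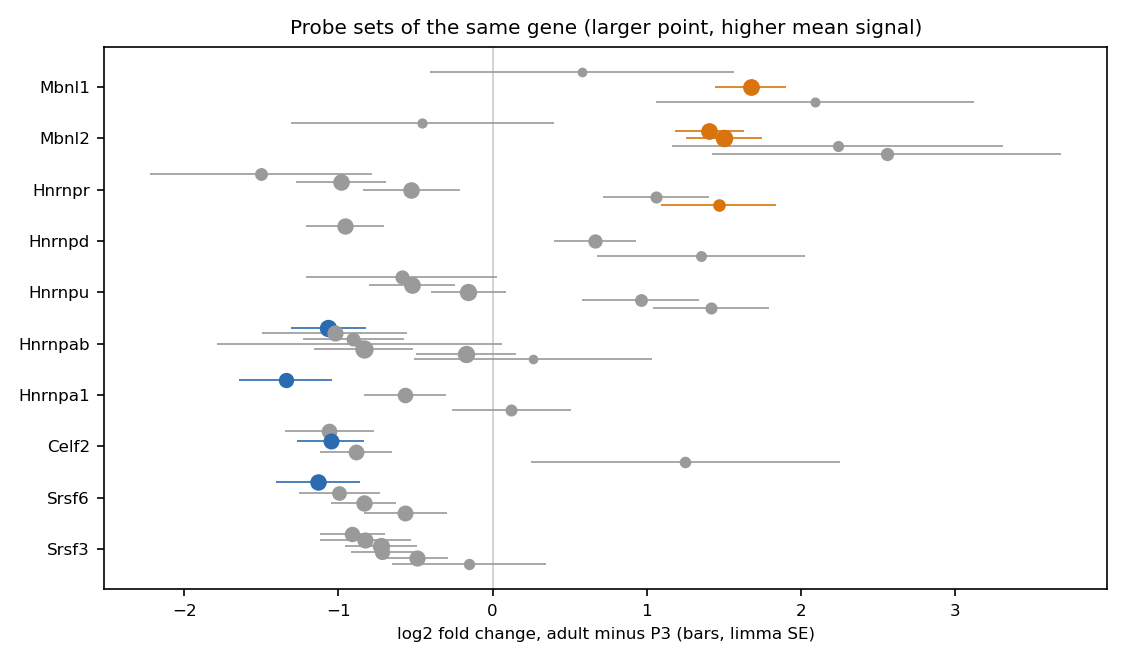
Log2 fold change, adult minus P3, of every probe set that passed for 10 genes, with bars of 1 limma SE on each side. Larger points have a higher mean signal, and orange and blue points were called higher in the adult and at P3. Mbnl2, Hnrnpr, Hnrnpd, Hnrnpu, Hnrnpab, Hnrnpa1 and Celf2 have probe sets on both sides of 0. All 4 Srsf6 and all 6 Srsf3 points lie left of 0.

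None of the 3 PTB genes was called by limma, and 0 of 3 had an unadjusted p under 0.05 by brightest probe set. Ptbp1, which holds back neuronal exons outside neurons, read 607, 887 and 997 at P3 and 435, 645 and 672 in the adult, with overlap (log2 fold change -0.50, SE 0.28, limma adjusted p = 0.319). Ptbp2, its counterpart in developing neurons, read 311, 377 and 367 against 261, 254 and 251, a small difference without overlap (log2 fold change -0.46, SE 0.20, limma adjusted p = 0.212). Ptbp3 read 324, 377 and 453 against 261, 400.0 and 329 and overlapped (log2 fold change -0.23, SE 0.24, limma adjusted p = 0.619). Ptbp1 had a larger negative change at 2 dimmer probe sets, -1.21 at 1458284_at (adjusted p = 0.102) and -2.75 at 1450443_at (adjusted p = 0.228). Dimmer probe sets of Ptbp2 and Ptbp3 went the other way, with changes up to 0.93 and 0.51, and overlapped.

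Neither epithelial regulator was called, and 0 of 2 had an unadjusted p under 0.05. Esrp1 read 210.2, 275 and 204 at P3 and 71.4, 274 and 204 in the adult (log2 fold change -0.52, SE 0.46, limma adjusted p = 0.541). Adult replicate 1, where the epithelial markers were also lowest, lay far below the P3 range, and the other adult arrays lay within it or at its edge. Esrp2 read 29.2, 13.1 and 32.3 against 24.7, 11.1 and 21.0 and overlapped (log2 fold change -0.37, SE 0.58, limma adjusted p = 0.748).

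In the CELF family, Celf2 was called higher at P3 and Celf1 was not called. Celf2, widely expressed and active in heart and brain, read 843, 877 and 721 at P3 and 461, 332 and 392 in the adult. All P3 arrays were above all adult arrays, and the mean fell from 813 ± 82.1 to 395 ± 64.5 (SD, n = 3 each; log2 fold change -1.05, SE 0.22, limma adjusted p = 0.0257). Celf2 1423895_a_at and 1451154_a_at differed in the same direction, by -1.06 (adjusted p = 0.0622) and -0.89 (adjusted p = 0.0577) and did not overlap, but missed the call. The dim 1439777_at differed, with 3.35, 44.4 and 52.4 against 71.5, 25.8 and 56.7 and a change of 1.25 that did not pass (adjusted p = 0.497). When single arrays were left out, the Celf2 call was kept without replicate 1 of either stage and lost without any of the other 4 (adjusted p from 0.0674 to 0.120). With its probe sets averaged, the difference was -0.44 (adjusted p = 0.434). Celf1 read 1472, 1570.5 and 1421 against 1407, 1799.7 and 1841, overlapping (log2 fold change 0.17, SE 0.23, limma adjusted p = 0.706).

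The other regulators known mostly from neurons peaked on 1 adult array. They are Elavl2, Elavl3, Elavl4, Celf3, Celf4, Celf5, Rbfox1, Rbfox3, Nova1 and Nova2, grouped here after their values were seen. All 10 had their highest reading on adult replicate 1, where the neuron marker sum was also highest, and 7 of them were at least 2-fold above every other array there. Of the other 41 genes, 2 were highest on that array, Mbnl1 (1806) and Mbnl2 (3129.8). They are the 2 genes called higher in the adult by brightest probe set. Ptbp2, the counterpart of Ptbp1 in developing neurons, is among these 41 and was highest on P3 replicate 2. As the grouping followed the values, these counts are a description and not a test. The share of all genes highest on that array is not given here. None of the 10 was called by limma with all arrays, 2 had an unadjusted p under 0.05, and the part of nerve tissue in their readings was not tested beyond these values.

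Elavl4, also called HuD, read 204, 205 and 335 at P3 and 939, 286 and 588 in the adult (log2 fold change 1.16, SE 0.42, limma adjusted p = 0.139). Its adult arrays differed more than 3-fold, in the order of the neuron marker sum, and adult replicate 2 fell within the P3 range. With adult replicate 2 left out it was called (log2 fold change 1.62, adjusted p = 0.0374). Elavl2 read 225, 203 and 310.2 against 904, 239.9 and 257, and Elavl3 read 111, 57.4 and 74.6 against 308, 41.0 and 87.1. In both, adult replicates 2 and 3 lay in or near the P3 range (adjusted p = 0.457 and 0.753). The widest change of any ELAV probe set, 2.88 at Elavl3 1455484_at, had an SE of 1.32 and was not called (adjusted p = 0.231). Elavl1, the family member made in nearly all cells, went the other way at its brightest probe set. It read 609, 580.2 and 542 at P3 and 201, 419 and 339 in the adult, without overlap but not called (log2 fold change -0.91, SE 0.29, limma adjusted p = 0.0955). The changes of the 6 Elavl1 probe sets ran from -1.02 to 1.60 and no other was separated, so the gene gave no single direction.

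**Figure D4:**
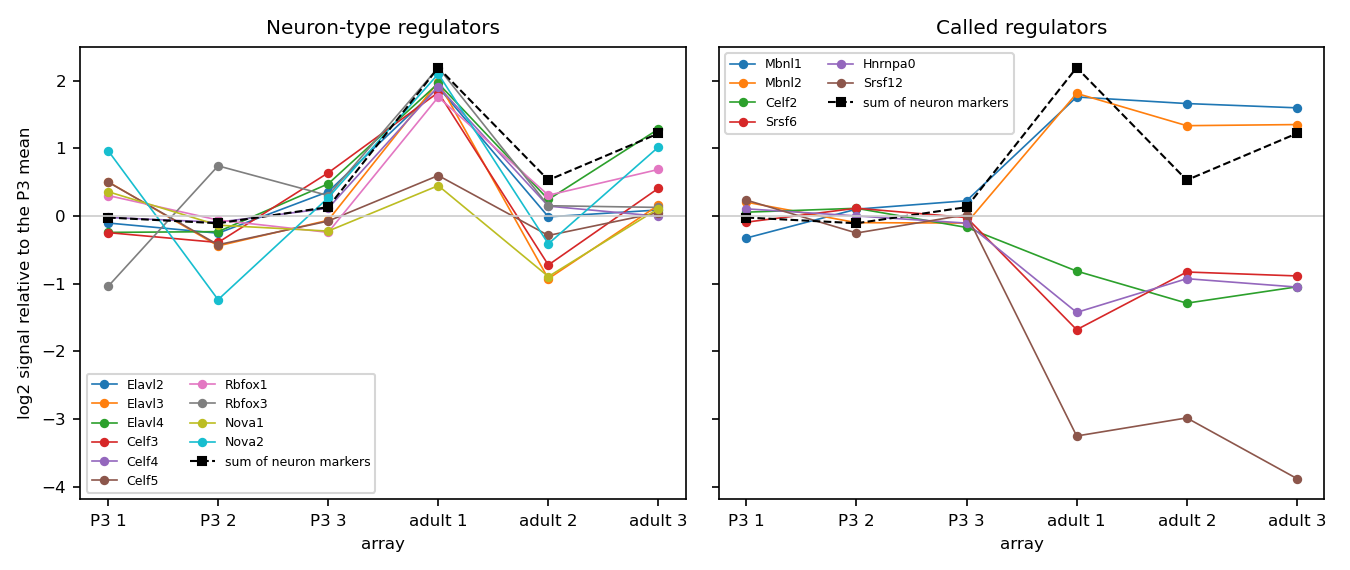
Log2 signal on each array relative to the mean log2 signal of the P3 arrays, for the 10 regulators known mostly from neurons (left) and 6 called genes (right), by brightest probe set, with the sum of neuron markers as a dashed black line in both. All 10 genes on the left peak on adult replicate 1, and they were grouped after their values were seen. The genes on the right were chosen because this contrast called them.

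Rbfox1, which acts in neurons and muscle, read 97.3, 75.7 and 66.7 at P3 and 267, 97.6 and 127 in the adult. Adult replicate 2 exceeded the highest P3 array only narrowly, and the difference was not called (log2 fold change 0.92, SE 0.39, limma adjusted p = 0.199). Over the 3 Rbfox1 probe sets the changes ran from 0.59 to 2.05. Of these, 2 were separated higher in the adult and none was called. Rbfox2, the more widely expressed member, read 68.8, 228 and 253 against 109.8, 123 and 149.6, with a wide P3 spread (log2 fold change -0.32, SE 0.47, limma adjusted p = 0.724). Over the 3 Rbfox2 probe sets the changes ran from -1.52 to -0.24. A dimmer probe set was separated higher at P3, and none was called. Rbfox3, known as the neuronal antigen NeuN, read 51.0, 176 and 129.6 against 481, 117 and 115 (log2 fold change 0.82, SE 0.63, limma adjusted p = 0.476). Outside adult replicate 1, its adult readings lay within the P3 range.

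Celf4, a brain CELF protein, read 86.0, 81.9 and 94.5 at P3 and 329, 96.5 and 87.1 in the adult (log2 fold change 0.68, SE 0.48, limma adjusted p = 0.435). Celf3 read 10.8, 9.80 and 20.0 against 45.6, 7.78 and 17.1, and Celf5 37.5, 19.7 and 25.1 against 40.1, 21.7 and 27.4 (adjusted p = 0.732 and 0.906). Stages overlapped at all 3, and some Celf3 readings were at or below background. Nova1, a neuronal regulator of synaptic transcripts, read 78.6, 55.7 and 52.5 against 83.6, 32.9 and 66.0, and Nova2 45.1, 9.79 and 27.8 against 99.0, 17.3 and 46.8 (adjusted p = 0.900 and 0.521). Both overlapped.

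The start regions of 5 called genes are shown so that those of genes called in the same direction can be set side by side. Sequences are from RefSeq (GRCm38.p6), 120 bases ending just before an annotated start, written 5′ to 3′ on the gene's strand, with matches to 6 short motifs in capitals. The motifs were searched on both strands as the GC box GGGCGG, the CCAAT box CCAAT, the TATA box TATAAA, the E box CACGTG, the cyclic AMP response half-site TGACG and the ETS core CCGGAAG. GC boxes can overlap each other. Mbnl1 has 2 starts, the upstream at chr3:60472710-60472829 (+ strand) and the downstream at chr3:60501059-60501178 (+ strand). The others are Mbnl2 at chr14:120275549-120275668 (+ strand), Srsf12 at chr4:33209152-33209271 (+ strand), Srsf6 at chr2:162931388-162931507 (+ strand) and Hnrnpa0 at chr13:58128557-58128676 (- strand).
Mbnl1, upstream start: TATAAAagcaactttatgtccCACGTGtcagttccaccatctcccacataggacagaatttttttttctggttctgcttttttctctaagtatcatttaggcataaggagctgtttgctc
Mbnl1, downstream start: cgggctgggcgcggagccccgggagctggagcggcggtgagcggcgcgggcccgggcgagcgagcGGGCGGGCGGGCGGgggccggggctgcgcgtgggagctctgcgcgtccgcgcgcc
Mbnl2: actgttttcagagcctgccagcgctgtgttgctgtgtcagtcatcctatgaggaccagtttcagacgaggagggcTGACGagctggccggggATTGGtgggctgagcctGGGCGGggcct
Srsf12: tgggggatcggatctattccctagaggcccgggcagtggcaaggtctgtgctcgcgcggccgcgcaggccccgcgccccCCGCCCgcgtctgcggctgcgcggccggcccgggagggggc
Srsf6: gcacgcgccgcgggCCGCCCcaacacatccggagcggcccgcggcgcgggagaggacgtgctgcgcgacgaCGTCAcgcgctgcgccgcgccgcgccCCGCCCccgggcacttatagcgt
Hnrnpa0: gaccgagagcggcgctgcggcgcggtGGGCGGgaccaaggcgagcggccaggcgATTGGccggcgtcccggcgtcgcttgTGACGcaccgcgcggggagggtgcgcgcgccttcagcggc

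These start regions differ. The upstream Mbnl1 start is AT-rich, with a TATA box letter match and an E box at the far end of the window, and the 250 bases before it hold 1 CpG. The downstream start carries 3 overlapping GC boxes, and the same length before it holds 33 CpGs. Srsf6 and Hnrnpa0 have 35 and 46 CpGs and Srsf12 has 19, while Mbnl2 has 10. Over the 250 bases before the start, the GC box was present in 62.2% of 82 start regions of 45 of the genes, and in 32.7% of all 32851 start regions. The half-site TGACG was in 32.9% against 17.8%, CCAAT in 47.6% against 33.8%, the ETS core in 9.76% against 6.91%, TATAAA in 9.76% against 12.4% and the E box in 4.88% against 6.02%. The median CpG number was 17.5 against 6. A match is only a match of letters, and starts of the same gene can overlap in sequence.

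Other genes of the splicing machinery were measured beside these families, and 71 of 101 had a lower mean in the adult by brightest probe set. The lists they come from were chosen with earlier results of these data known. Of the 101, none was called higher in the adult by limma (1 at an unadjusted p under 0.05) and 6 were called higher at P3, 5.94% beside the 5.49% background. In all, 38 were separated higher at P3 (37.6%, beside 20.3% of all genes by brightest probe set) and 2 higher in the adult (1.98%, beside 15.9%), and the median change was -0.30. Of 46 other regulators, 4 were called (8.70%) and 18 separated higher at P3 (39.1%). Rbm24, a regulator of muscle and hair cell exons, read 175, 310.2 and 197 at P3 and 38.9, 41.1 and 48.3 in the adult (log2 fold change -2.37, SE 0.30, limma adjusted p = 0.00370). Its adult arrays lay within a narrow range far below P3.

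The others called among the regulators were Tia1, an RNA-binding protein of stress granules, Sfpq, a paraspeckle protein, and Fubp1. Their changes were -1.12, -1.12 and -1.04 (limma adjusted p = 0.0225, 0.0310 and 0.0255). Srrm4, which drives neuronal microexons and is active in hair cells, read 35.7, 20.8 and 16.7 at P3 and 31.2, 4.57 and 14.5 in the adult, near background and overlapping (log2 fold change -0.86, SE 0.77, limma adjusted p = 0.545). Tra2b and Khdrbs3 were not called, with log2 fold changes of -0.48 and -0.26 (adjusted p = 0.244 and 0.573). Qk, known for its part in myelinating glia, read 1031, 969 and 1198 against 2756, 972 and 1902 (adjusted p = 0.299), again highest on adult replicate 1.

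Of 46 core spliceosome genes, 2 were called higher at P3 (4.35%, beside 5.49% of all genes) and 18 were separated higher at P3 (39.1%, beside 20.3%). Snrpf, a ring protein of the small nuclear particles, read 823, 737 and 594 at P3 and 252, 309 and 292 in the adult (log2 fold change -1.33, SE 0.22, limma adjusted p = 0.0105). Prpf38a, needed to activate the spliceosome, changed by -1.25 (adjusted p = 0.0312). The stages were apart at both. None of 9 SR protein kinases was called by limma, and 1 had an unadjusted p under 0.05. Srpk1, which phosphorylates SR proteins in the cytoplasm, read 208, 180.3 and 173 against 156, 139 and 168 (log2 fold change -0.28, SE 0.22, limma adjusted p = 0.487), and the nuclear kinase Clk1 read 319, 368 and 311 against 436, 529 and 675 (log2 fold change 0.70, SE 0.23, limma adjusted p = 0.110). Of the 9, Srpk1 and Prpf4b were separated higher at P3, and Clk1 and Clk3 higher in the adult. The count of 6 other splicing genes called at P3 became 1 without adult replicate 3, 2 without either P3 replicate 2 or P3 replicate 3, and 10 without adult replicate 2.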

How the data were processed

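RNA from pools of CSE was measured on 6 Affymetrix arrays, 3 at P3 and 3 from adults. The authors computed linear signal intensities by the MAS5.0 method, and the submitters' processing notes name GCOS 1.2. The deposited intensities were taken as they stand, with no further normalization. Their trimmed mean (2% left out at each end), averaged over the 6 arrays, rounded to 100. Genes were named from a 2016 annotation of the array, and symbols were matched as written there. The families, gene lists and rule for named genes were chosen with earlier results of these data known. By that rule every family gene may be named, values on each array are given for called genes and for all genes of the smaller families, as are the largest differences among other SR and hnRNP genes. Up to 4 called genes of each list of other splicing genes are named, and Srrm4, Rbm24, Srpk1, Clk1, Khdrbs3, Tra2b and Qk in any case. Prpf4b and Clk3 and the values of Srsf3, Srsf5, Srsf11, Hnrnpl, Hnrnpu and further uncalled probe sets were added after they were seen.

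The background level of an array was the 90th percentile of 83 probe sets of olfactory, vomeronasal and bitter taste receptors, and a probe set was tested where 3 or more of the 6 arrays exceeded it. Stages were compared on log2 signals in R 4.3.3 by limma (version 3.58.1, lmFit and trended eBayes on all 6 arrays, with no covariate beside stage). P-values were adjusted by Benjamini-Hochberg over all 29036 probe sets. SE is the moderated standard error and SD that of 3 signals. Precision is limited by how few arrays there are. The procedure was tested on simulated data. Alternatives were other scalings, filters and background treatments, no intensity trend, the replicate number as a block, the mean over a gene's probe sets and each array left out in turn. The authors' detection calls and their SAM test were not used here.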

Additional observations from a re-analysis of the deposited data

How the results depend on the processing

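The 10 called probe sets kept their direction in every setting tried, except Hnrnpr 1438807_at, whose gene changed by -0.10 when its probe sets were averaged. Most settings could not have reversed a direction. The stages did not overlap at any of the 10, so leaving out an array keeps the sign. The other filters, the replicate block and the fit without the trend leave the fold change itself as it was. The number of called probe sets, 4 in the adult and 6 at P3, was 1 and 1 after scaling to the same median, and without the intensity trend 1 was called at P3. By gene, 2 in the adult and 4 at P3 became 1 and 1 with the same median, 1 and 2 with probe sets averaged, and 1 at P3 without the trend. The 6 other splicing genes called at P3 became 1 with the same median, 1 without the trend and 3 with probe sets averaged. The cause was not tested. Leaving out single arrays gave 1 to 5 probe sets in the adult, 1 to 11 at P3, 1 to 2 genes in the adult, 1 to 5 at P3, 1 to 10 other splicing genes at P3 and 0 to 1 in the adult. Leaving out P3 replicate 1, which had the strongest 3′ bias, gave the 11, and leaving out P3 replicate 2 or 3 or adult replicate 3 gave 1 at P3. Over all probe sets the calls at P3 went from 1125 to 1440.0, 451, 422 and 342 in these settings. With the replicate block, 9 probe sets were called at P3 and 4 in the adult, with 4 and 2 genes. Over all probe sets the block gave 1318 calls at P3 and 1331 in the adult, from 1125 and 984. Deviations from the stage means were correlated between P3 and adult arrays. The correlation was 0.182, 0.213 and 0.0762 for same-numbered arrays and -0.197 to 0.0543 for the other pairs. All 6 arrays thus correlate best with their own number, but weakly. Whether the replicates were paired cannot be told from these values. Signal over background limits Srsf12 in the adult, and Celf3, Mbnl3 and Srrm4 on some arrays.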
